A study of Mus musculus with 2 samples.

Results

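Resting regulatory T cells (resting Treg cells) of the mouse spleen were picked out of single-cell RNA profiles by a rule on raw counts of unique molecular identifiers (UMIs, each marking 1 captured RNA molecule). A cell counted as one when it showed no fewer than 500 genes, had mitochondrial UMIs below 10%, carried at least 1 UMI of Foxp3 and 1 of Cd3e, and 0 UMIs of Klrg1, S100a4, Maf, Cd8a, Cd8b1, Cd79a and Mki67. The members were thus selected on measured counts of these genes, which are given below only as a description. The rule found 322 of the 14372 cells that passed the cell filter: 171 of 7660 in the Prmt5 CKO library and 151 of 6712 in the control library. The CKO sample carries, per its labels, a CD4-Cre transgene and PRMT5fl/fl, on the C57BL/6 strain. A CD4-Cre transgene acts in developing thymocytes, so conventional CD4, CD8 and Treg cells all derive from cells in which it was active. The control sample is named Control and WT in its title, but its genotype field reads the same as that of the CKO sample, so the groups rest on the titles. The labels used here give no age, sex or treatment for either group.

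Each group is 1 library, drawn from 3 mice per the design text, with no map from cells to mice. There are therefore no replicates, no test between the groups was possible, and genotype and library cannot be told apart. Every interval below is a 95% interval that covers counting error only, and all are exact except those of ratios of shares.

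Treg cells are the CD4 lineage that restrains other T cells. Their identity is set by the transcription factor Foxp3, and they depend on interleukin 2, which they bind through a receptor that includes the alpha chain encoded by Il2ra. Resting Treg cells recirculate through lymphoid organs and express homing molecules such as Ccr7, whereas effector Treg cells lose these and gain genes such as Klrg1, S100a4 and Maf, the genes the rule excludes. PRMT5 is an arginine methyltransferase whose symmetric dimethylation targets include Sm proteins of the spliceosome and histones.

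The matrices held 7896 CKO barcodes with 52387620 UMIs and 7407 control barcodes with 48273424 UMIs. Resting Treg cells contributed 1061462 UMIs in the CKO library and 881848 in the control library. Their median depth was 5398 UMIs and 1752 genes per CKO cell, and 5266 UMIs and 1690 genes per control cell. Mitochondrial UMIs had a median of 3.79% in CKO and 4.67% in control resting Treg cells. The libraries shared 11 barcodes, and 0 of these belonged to resting Treg cells. A UMI of a Y-linked gene was present in 28.7% of CKO and 27.2% of control resting Treg cells, and in 32.7% of all kept CKO and 27.5% of all kept control cells.

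The rule was traced step by step. Foxp3 UMIs were seen in 428 kept CKO cells and 417 kept control cells, and 401 CKO and 408 control cells also had Cd3e. Among these, a Maf UMI was carried by 132 CKO and 179 control cells. S100a4 was present in 131 CKO and 92 control cells, and Klrg1, an inhibitory lectin receptor, in 77 CKO and 42 control cells. Cd8b1 was present in 90 CKO and 79 control cells, and Cd8a in 55 CKO and 48 control cells. Single UMIs decided part of the membership. Just inside the rule, 80 of 171 CKO and 87 of 151 control members had exactly 1 Foxp3 UMI. Just outside it, 45 CKO and 71 control cells failed by exactly 1 UMI of 1 excluded gene. That gene was Cd8b1 in 23 CKO and 20 control cells, and Maf in 9 CKO and 35 control cells. Ikzf2 was present in 80.0% of these near-miss CKO cells and in 80.3% of the near-miss control cells, against 71.3% of CKO and 70.9% of control members. Members with 2 or more Foxp3 UMIs numbered 91 in the CKO library and 64 in the control, and the highest count in a cell was 10 in the CKO library and 8 in the control.

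The label was checked against Treg markers that the rule did not use, and these were present in both libraries. Ikzf2, which encodes the transcription factor Helios, was detected in 71.3% of CKO members (122 of 171) and 70.9% of control members (107 of 151). Il2ra was detected in 50.9% of CKO and 50.3% of control members, and Izumo1r, a folate receptor relative, in 77.2% of CKO and 80.1% of control members. Ecm1 was detected in 55.6% of CKO and 42.4% of control members, and the orphan receptor gene Gpr83 in 35.7% of CKO and 29.8% of control members. In B cells of the same libraries, which should lack these genes, Il2ra had a UMI in 3 of 55 cells from the CKO and 0 of 51 from the control library, and Ikzf2 in 2 of 55 CKO and 1 of 51 control cells. The B cells were shallower, with medians of 4009 UMIs in CKO and 4236 UMIs in control B cells. After each cell had been thinned to 2000 UMIs, Ikzf2 was detected in 55.4% of CKO and 56.2% of control members. At least 3 of the 5 markers were present in 68.1% of CKO and 78.1% of control members with 2 or more Foxp3 UMIs, and in 44 of 80 CKO and 41 of 87 control members with 1 Foxp3 UMI. None of the 5 was detected in 12 CKO and 8 control members. Foxp3 itself appeared in 2.74% of CKO and 1.71% of control CD8 cells (medians of 6899 and 7267 UMIs). A Foxp3 UMI was present in 2 of 55 CKO and 0 of 51 control B cells, and 0 of 51 allows a share of up to 5.88%, taken as 3 counts of 51 (the exact 95% upper bound was 6.98%). The part of free RNA in members with a single Foxp3 UMI was not tested.

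Members were then set against resting conventional CD4 cells, which met the same exclusions with 0 Foxp3 UMIs and at least 1 Cd4 UMI (1869 CKO and 1365 control cells). Levels were given as counts per 1e+06 UMIs of the summed cells (CPM). Of 4549 genes measured in both kinds of cell, 218 (4.79%) were at least 1.5-fold higher in resting Treg cells of both libraries with the interval off 1, and 55 (1.21%) were lower. The Treg identity list held 25 genes, 17 of which were measured in this comparison, and 16 of the 17 were higher in both libraries. Il2ra was furthest apart, at 204 CPM in CKO resting Treg against 4.82 CPM in CKO conventional CD4 cells, and at 266 CPM in control resting Treg against 5.08 CPM in control conventional CD4 cells. Lrrc32, which displays latent TGF-beta on the Treg surface, was 38.3-fold higher in the CKO library and 40.7-fold higher in the control. Ikzf2 was 18.3-fold higher in the CKO library and 17.3-fold higher in the control, and Tnfrsf4, the costimulatory receptor OX40, 18.7-fold in the CKO library and 19.4-fold in the control. The next genes by size were Nrp1 (neuropilin-1), Il2rb (the beta chain of the interleukin 2 receptor), Gsta4, Cish (a target of interleukin 2 signalling), Coro2a and Gpr83, at 8.20-fold to 14.9-fold in the CKO and 8.30-fold to 14.2-fold in the control library.

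Other genes were lower in resting Treg than in conventional CD4 cells. Igfbp4, an insulin-like growth factor binding protein, stood at 216 CPM in CKO resting Treg against 718 CPM in CKO conventional CD4 cells, and at 108 CPM in control resting Treg against 411 CPM in control conventional CD4 cells. Dapl1 was 4.46-fold lower in resting Treg cells of the CKO library and 4.73-fold lower in those of the control library. Pdlim4, Pde3b (a phosphodiesterase that degrades cyclic AMP), Vipr1 (a receptor for vasoactive intestinal peptide), Tdrp, Als2cl, Cd40lg (CD40 ligand), Rflnb and Fam78a made up the rest of the 10 lowest. Cd4 is not comparable here, because a Cd4 UMI was asked of the conventional cells, while it was present in 76 of 171 CKO and 68 of 151 control resting Treg cells.

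**Figure D1:**
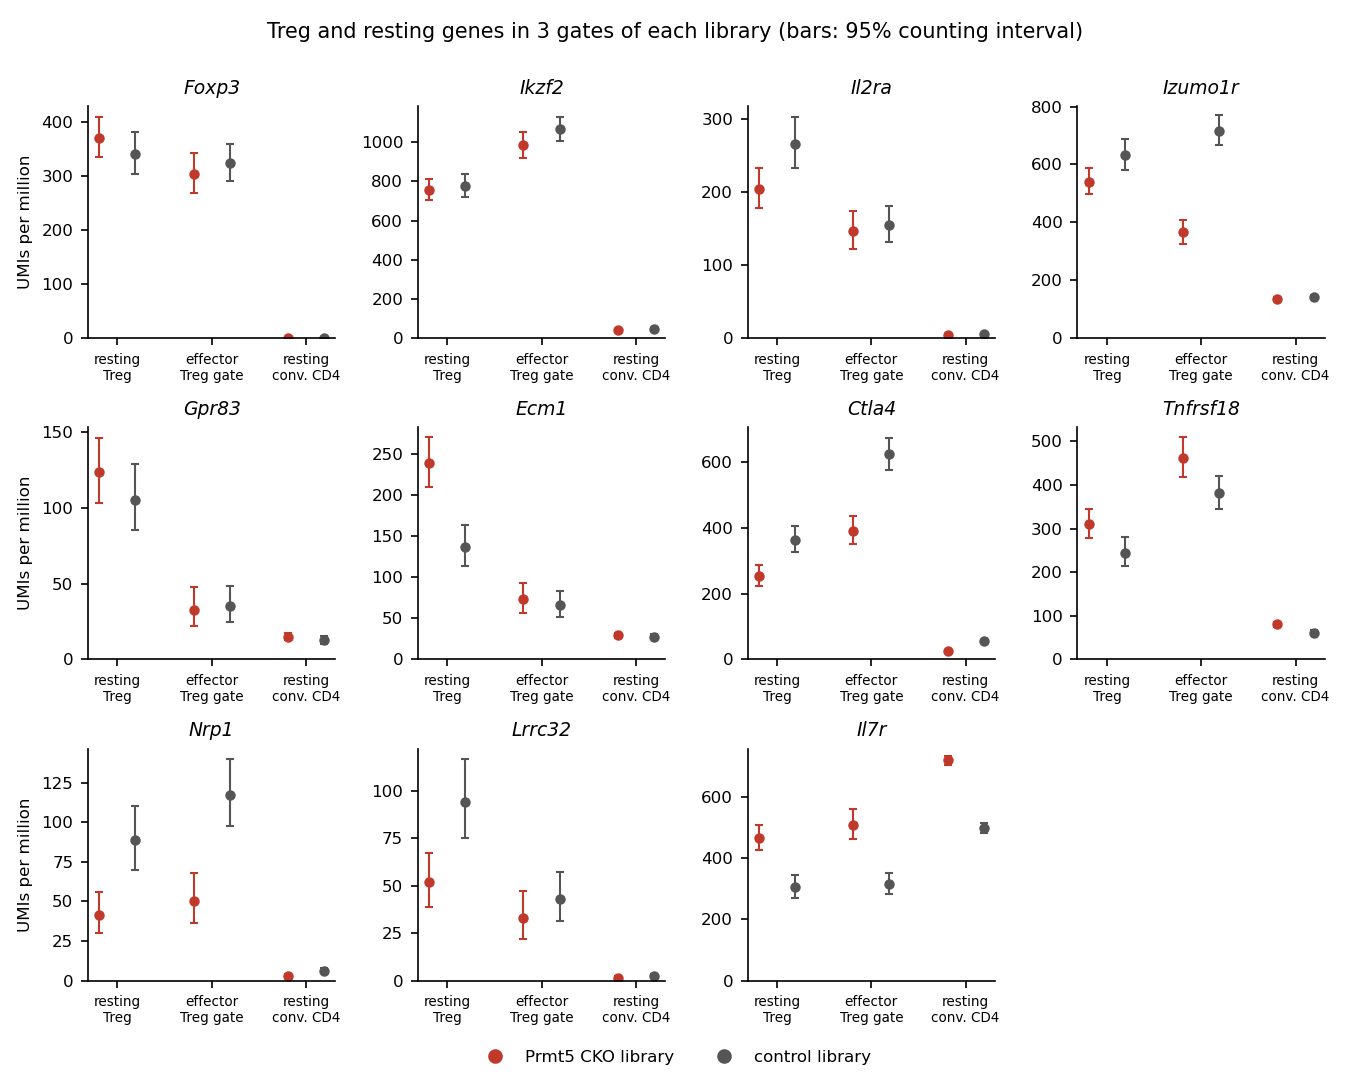
Level of 11 genes in CPM (vertical axes, from 0) in resting Treg cells, cells of the effector Treg gate and resting conventional CD4 cells; points are the summed cells of the Prmt5 CKO library (red, left) or the control library (grey, right), and bars are 95% counting intervals. Ikzf2 and Il2ra were far above conventional CD4 cells in both libraries, Gpr83 and Ecm1 were higher in resting Treg cells than in the effector gate, and Nrp1 and Lrrc32 were lower in CKO than in control resting Treg cells.

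The resting state was described against the effector Treg gate, that is cells with Foxp3 and Cd3e, a UMI of Klrg1, S100a4 or Maf and 0 of the other excluded genes (100 CKO and 140 control cells, medians of 7212.5 and 6495 UMIs). This gate also held markers of other lymphocytes: the gamma-delta list summed to 145 UMIs (170.0 CPM) in the CKO gate and 0 UMIs in the control gate, and the NK list to 17 CKO and 7 control UMIs. Their part in values of the gate, and in shares that use it, was not tested. Of 3549 genes, 171 (4.82%) were higher in the effector gate of both libraries and 43 (1.21%) were lower. Gpr83 had 123 CPM in CKO and 105 CPM in control resting Treg cells, against 32.8 CPM in the CKO and 35.2 CPM in the control effector gate. S100a6, a calcium-binding protein of activated T cells that the rule did not use, had 18.8 CPM in CKO and 28.4 CPM in control resting Treg cells, and 2457 CPM in the CKO and 1047 CPM in the control effector gate.

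The share of resting Treg cells among all kept cells was nearly the same in both libraries. It was 2.23% in the CKO library (1.91 to 2.59) and 2.25% in the control library (1.91 to 2.63), a ratio of 0.992 (0.793 to 1.24). Resting and effector Treg cells together were 3.54% of CKO and 4.34% of control cells, a ratio of 0.816 (0.689 to 0.966). Resting cells made up 63.1% of the CKO Treg cells (57.1 to 68.9, 171 of 271). They made up 51.9% of the control Treg cells (46.0 to 57.8, 151 of 291), a ratio of 1.22 (0.971 to 1.52). The intervals of these ratios of shares treat cell numbers as Poisson counts. For shares as large as 63.1% and 51.9% such an interval is too wide, so its position against 1 is not read. Asking for 2 Foxp3 UMIs moved the ratio of shares among kept cells to 1.25. Shares of a sorted suspension also depend on how many other T cells were recovered.

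Prmt5, the targeted gene (ENSMUSG00000023110, chromosome 14, 54507187 to 54517525 on the minus strand, mm10), was low in members of both libraries and lower in the CKO. It had 3 UMIs in 3 of 171 CKO cells, or 2.83 CPM (0.583 to 8.26), and 17 UMIs in 16 of 151 control cells, or 19.3 CPM (11.2 to 30.9). The log2 ratio was −2.77 (−5.18 to −0.98). In resting conventional CD4 cells Prmt5 was at 3.47 CPM in the CKO and 11.3 CPM in the control library. A Prmt5 UMI was present in 7 of 55 CKO and 5 of 51 control B cells, a lineage outside the T cell Cre. Droplet counts tag the 3′ end of a transcript, so the remaining CKO UMIs do not tell whether a cell kept an undeleted copy.

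Across the transcriptome, 3728 genes reached the level at which a ratio was read, a mean of at least 20 CPM and at least 60 UMIs over both libraries. Of these, 172 (4.61%) were at least 1.5-fold higher in CKO resting Treg cells with the interval off 1, and 135 (3.62%) were at least 1.5-fold lower. Median-of-ratios scaling in place of total UMIs moved this split to 143 higher and 167 lower. Genes past both limits with total UMIs as the scale are described below as called higher or called lower. The intervals are not corrected for the number of genes read, so some calls can arise from counting error alone. In resting conventional CD4 cells, which gave several times more UMIs, 56 (1.19%) of 4689 genes were called higher and 32 (0.682%) lower. Counting error is smaller there, so the shares called in the 2 kinds of cell are not directly comparable. The median log2 ratio of all measured genes in resting Treg cells was 0.04.

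Plac8, a cysteine-rich protein of immune cells (chromosome 5, 100553725 to 100572245), stood furthest above the control. It had 89 UMIs in 25 of 171 CKO cells and 7 UMIs in 5 of 151 control cells, 83.8 CPM (67.3 to 103) in CKO cells against 7.94 CPM (3.19 to 16.4) in control cells, or 10.6-fold. Its log2 ratio was 3.40, and 2.45 when 2 Foxp3 UMIs were asked for. In conventional CD4 cells it was at 5.41 CPM in the CKO and 3.35 CPM in the control library. Ifitm3, an interferon-inducible membrane protein that hinders virus entry, had 70 UMIs in 28 CKO cells, 17 of them in a single cell, and 10 UMIs in 7 control cells. It stood at 65.9 CPM in the CKO and 11.3 CPM in the control library, a log2 ratio of 2.54 (1.58 to 3.66). Its log2 ratio in conventional CD4 cells was 1.99, but there it lay under the level at which a ratio was read. Both transcripts were present together in 9 CKO members and 1 control member. Most members of either library had neither, 74.3% in the CKO library and 92.7% in the control.

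Lck, the kinase that starts signalling from the T cell receptor, differed by many molecules. It had 1113 UMIs in 166 CKO cells and 374 UMIs in 121 control cells, 1049 CPM (988 to 1112) in CKO cells against 424 CPM (382 to 469) in control cells, or 2.47-fold. After thinning to 2000 UMIs it was detected in 135 of 168 CKO members and 73 of 146 control members. Its log2 ratio was 1.31 in resting Treg cells, as in conventional CD4 cells. The stress-inducible gene Gadd45g was detected in 51 CKO and 15 control cells, with 75.4 CPM in CKO cells against 26.1 CPM in control cells, a log2 ratio of 1.53 (0.85 to 2.27). Fas, the death receptor, had 129 CPM in 65 CKO cells and 57.8 CPM in 35 control cells, or 2.23-fold, and Map3k8, a kinase upstream of ERK, 77.3 CPM in the CKO library against 31.8 CPM in the control library. Igf2r, which sorts lysosomal enzymes and binds insulin-like growth factor 2, had 122 CPM in the CKO and 55.6 CPM in the control library, and its log2 ratio of 1.13 was 0.42 when Klrg1, S100a4 and Maf were not used to exclude cells. The remaining genes among the 15 highest had log2 ratios between 1.10 and 1.32. They were Lztfl1 (a ciliary trafficking factor), Lactb (a mitochondrial protein), Cnot7 (an mRNA deadenylase), the histone gene Hist1h2bc, Cuedc2, Epb41l2 (a cytoskeletal linker), Cdk5rap1 (a tRNA-modifying enzyme) and Smim4. The direction of Cuedc2 and Cdk5rap1 turned when cells were thinned to 2000 UMIs before the rule was applied, with log2 ratios of −0.65 and −0.07.

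Itgb1, the beta 1 integrin chain (chromosome 8, 128685654 to 128733200), stood furthest below the control. It had 17 UMIs in 15 CKO cells and 75 UMIs in 36 control cells, with CPM intervals of 9.33 to 25.6 in the CKO and 66.9 to 107 in the control library, 5.31-fold lower. In the effector gate Itgb1 was at 148 CPM in the CKO and 165 CPM in the control library. When Klrg1, S100a4 and Maf were not used to exclude cells, its log2 ratio moved to −0.78, against −2.41 under the rule. When cells with a UMI of 6 further effector genes were left out, it was −2.28. Nt5e, the surface enzyme CD73 that makes adenosine, had 23 UMIs in 16 CKO cells and 60 UMIs in 38 control cells, 21.7 CPM in CKO cells against 68.0 CPM in control cells, 3.14-fold lower. Its log2 ratio was −1.65, and −3.87 when cells were thinned. Itgb1 and Nt5e were detected in the same cell in 2 CKO and 19 control members.

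The other genes among the 15 lowest had log2 ratios between −1.44 and −1.05. Ptger4, a receptor for prostaglandin E2, had 18.8 CPM in the CKO and 51.0 CPM in the control library, and P2ry10, a lysophospholipid receptor, 44.3 CPM in CKO cells and 101 CPM in control cells. Rgs1, which limits signalling from chemokine receptors, had 202 CPM in 89 CKO cells and 417 CPM in 102 control cells, 2.07-fold lower. Its log2 ratio was −1.05 in all members and −0.37 in the 49 CKO and 41 control members with a Y-linked UMI. Rgcc, a regulator of the cell cycle, was 2.52-fold lower and the glycolytic enzyme gene Pfkl 2.35-fold lower. The rest were H2-Q6, Lncpint (a long noncoding RNA), Cd83, Art2b (an ADP-ribosyltransferase), Nrp1, Taf3 (a subunit of the general factor TFIID), Psen2 (a gamma-secretase subunit) and Uvrag (an autophagy factor), with log2 ratios between −1.35 and −1.05.

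**Figure D2:**
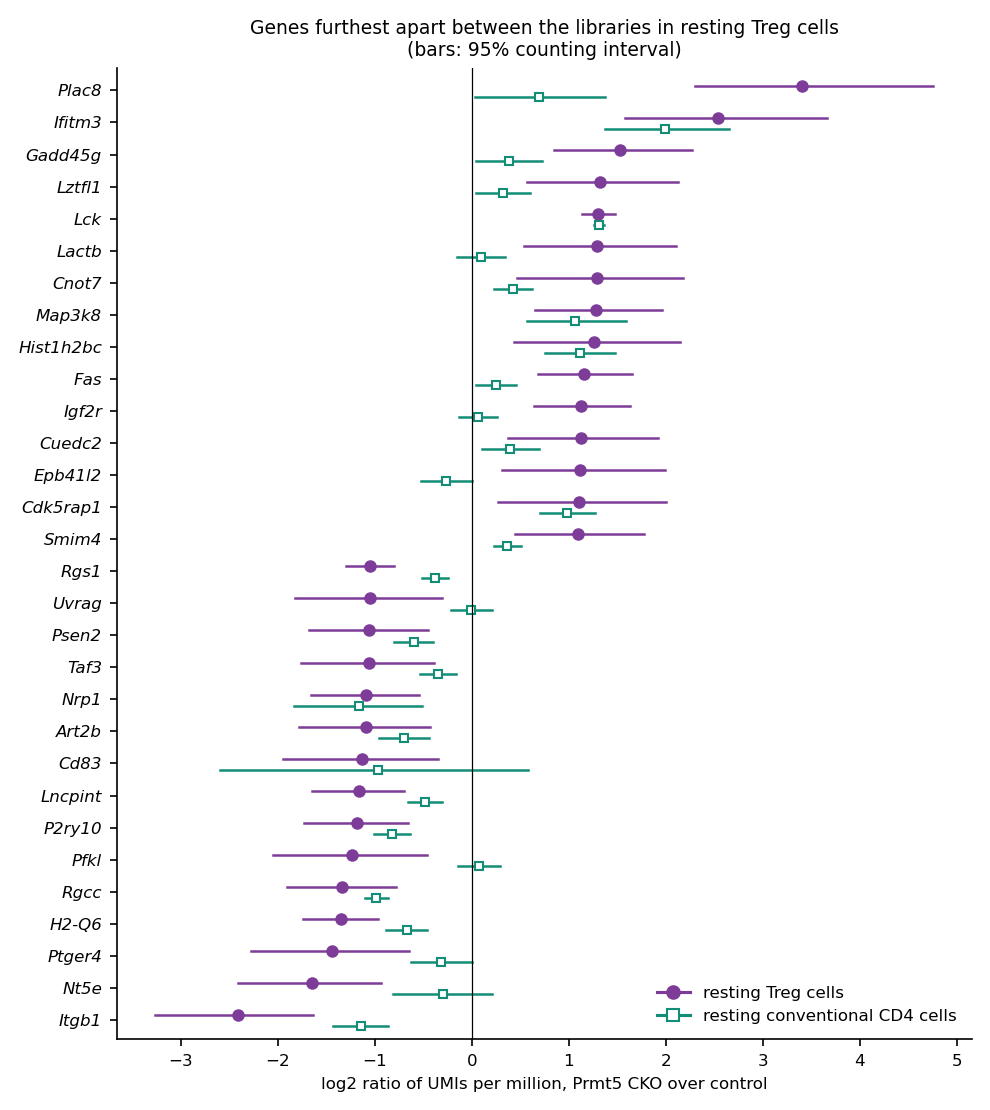
Log2 ratio of CPM, Prmt5 CKO over control (horizontal axis), for the 15 highest and 15 lowest genes in resting Treg cells (purple circles), with the ratio of the same genes in resting conventional CD4 cells (green squares); bars are 95% counting intervals. Lck had the same ratio in both kinds of cell, while Fas, Igf2r, Itgb1 and Pfkl were further from 0 in resting Treg cells.

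The Treg identity genes had no common shift. Of 25 listed, 18 were measured, with 11 ratios above and 7 below 0, 3 called higher, 2 called lower and a median log2 ratio of 0.05. Of all genes, 54.7% had ratios above 0, 4.61% were called higher and 3.62% lower, with a median of 0.04. The interval lay above 0 for 4 of the 18 and below 0 for 5, against 10.9% and 7.86% of all genes. Ikzf2 was close, with 756 CPM (704 to 810) in the CKO and 775 CPM (718 to 835) in the control library, a log2 ratio of −0.04 (−0.18 to 0.11). Foxp3, which the rule used, had 370 CPM in the CKO and 340 CPM in the control library. Gpr83 had 123 CPM in CKO cells and 105 CPM in control cells, with a log2 ratio of 0.23 (−0.17 to 0.63). Il2ra, which was not called, had 204 CPM (178 to 234) in the CKO against 266 CPM (234 to 303) in the control library. Izumo1r had 541 CPM in CKO cells against 632 CPM in control cells. Tnfrsf18, the costimulatory receptor GITR, had 310 CPM in the CKO against 245 CPM in the control library and was not called either. With at least 2 Foxp3 UMIs asked for, the median of the list was −0.23.

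The 3 identity genes called higher were Ecm1, Cd81 and Ikzf4. Ecm1, a secreted matrix protein, had 253 UMIs in 95 CKO cells and 120 UMIs in 64 control cells, 238 CPM (210 to 270) in CKO cells against 136 CPM (113 to 163) in control cells, or 1.75-fold. It was higher than in conventional CD4 cells by 8.17-fold in the CKO library and 4.93-fold in the control. In members with a Y-linked UMI its log2 ratio between the libraries was 0.12. Cd81, a tetraspanin, had 163 CPM in CKO cells against 93.0 CPM in control cells, and Ikzf4, which encodes the transcription factor Eos, 72.5 CPM in CKO cells against 45.4 CPM in control cells. The 2 called lower were Nrp1 and Lrrc32. Nrp1, a semaphorin receptor that marks thymus-derived Treg cells, had 44 UMIs in 30 CKO cells and 78 UMIs in 41 control cells, 41.5 CPM in CKO cells against 88.5 CPM in control cells, 2.13-fold lower. Over 12 alternatives its log2 ratio lay between −2.38 and −0.70. Lrrc32 had 51.8 CPM in 37 CKO cells and 94.1 CPM in 46 control cells, 1.82-fold lower, with a log2 ratio of −0.86 in all members and −0.31 when cells were thinned.

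All 4 measured members of the list of suppressor molecules had ratios below 0, with a median log2 ratio of −0.69, and 2 of them, Nt5e and Lrrc32, were called lower. Of all genes, 45.3% had ratios below 0 and 3.62% were called lower. Lrrc32 and Ctla4 also stand in the identity list. Ctla4, which competes for the costimulatory ligands of antigen-presenting cells, had 253 CPM (224 to 286) in the CKO and 364 CPM (325 to 406) in the control library, 1.44-fold lower. Its log2 ratio was −0.52 in resting Treg and −1.14 in conventional CD4 cells, a difference of 0.62 (0.30 to 0.94). Tgfb1 had 94.2 CPM in the CKO and 109 CPM in the control library. The other 14 listed genes were not measured, among them Il10 with 0 UMIs in both libraries, Tigit with 0 CKO and 4 control UMIs and Ebi3 with 3 CKO and 4 control UMIs. The median of the list moved between −1.02 and −0.23 over 13 alternatives.

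Genes of the resting state and of lymphoid homing were all measured (16 of 16), with a median log2 ratio of 0.003. Of all genes, 4.61% were called higher and 3.62% lower. Il7r, the receptor for the survival cytokine interleukin 7, was the 1 called higher, with 465 CPM in 126 CKO cells and 306 CPM in 88 control cells. Its log2 ratio was 0.60 in resting Treg and 0.53 in conventional CD4 cells. Lef1 and Satb1, transcription factors of thymocytes and quiescent T cells, had log2 ratios of 0.29 and 0.23 with intervals above 0. Klf2, which maintains quiescence, had 1109 CPM in the CKO and 1407 CPM in the control library, a log2 ratio of −0.34 (−0.46 to −0.23).

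Of 24 effector Treg genes, 12 were measured, with 1 called higher and 3 lower, against 4.61% of all genes called higher and 3.62% lower. Lgals1, the secreted lectin galectin-1, had 345 CPM in 100 CKO cells and 186 CPM in 68 control cells, 1.85-fold higher, and in the effector gate it was at 1940 CPM in CKO cells and 635 CPM in control cells. Itgb1, Ahnak and Icos were lower. Icos, a costimulatory receptor of activated Treg cells, was found in 29 CKO and 37 control members, at 30.1 CPM in CKO cells against 54.4 CPM in control cells. Among homing receptors and integrins, 10 of 19 were measured and 7 of the 10 ratios were below 0, against 45.3% of all genes. Cxcr4, the receptor for CXCL12, had 98.9 CPM in the CKO and 158 CPM in the control library, and Itgal, the LFA-1 alpha chain, 73.5 CPM in CKO cells and 112 CPM in control cells. Itgal turned direction when cells were thinned, with a log2 ratio of 0.01.

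Signalling downstream of the antigen receptor was mixed. Of 28 listed genes, 26 were measured, with 12 ratios above and 14 below 0. Lck and Rasgrp1, an activator of RAS, were called higher, and Malt1, Ptpn22 and Zap70 lower. Of all genes, 54.7% had ratios above 0, 4.61% were called higher and 3.62% lower. Rasgrp1 turned direction when cells were thinned, to a log2 ratio of −0.20. Zap70, the kinase that acts after LCK, had 75 UMIs in 51 CKO cells and 96 UMIs in 65 control cells, 70.7 CPM in CKO cells against 109 CPM in control cells, 1.54-fold lower. In conventional CD4 cells Zap70 was at 99.9 CPM in both libraries. The immediate early list, genes induced soon after stimulation, had 22 of 26 members measured, 13 ratios below 0 and a median log2 ratio of −0.19. Of the 22, 4 were called lower, against 3.62% of all genes, and 45.3% of all genes had ratios below 0. Dusp10, a phosphatase of stress kinases, had 119 CPM in 72 CKO cells and 242 CPM in 99 control cells, 2.03-fold lower. Nr4a3, Klf6 and Btg2 were also called lower, at log2 ratios of −0.98, −0.86 and −0.72. Klf6 had −0.15 in members with a Y-linked UMI. Junb had 1784 CPM in the CKO and 2666 CPM in the control library, whereas Fos had 833 CPM in CKO cells against 567 CPM in control cells.

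Genes of interleukin 2 and STAT5 signalling showed no common shift. Of 18 listed, 16 were measured, 8 on each side of 0, and Il7r was the 1 called. Among transcription factors that control Foxp3, 26 of 32 were measured and 1, Creb1, was called higher, with 93.3 CPM in the CKO and 57.8 CPM in the control library. In the list of costimulatory and checkpoint receptors, 13 of 20 were measured. Tnfsf8, the CD30 ligand, was called higher at 116 CPM in 54 CKO cells against 62.4 CPM in 22 control cells, and Icos and Cd84 were called lower. The calls in these lists stand beside 4.61% of all genes called higher and 3.62% lower.

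Transcripts of p53 target genes were mostly higher in CKO resting Treg cells. Of 21 listed genes 10 were measured, 8 with ratios above 0, 5 called higher and 1 lower, against 54.7% of all genes above 0, 4.61% called higher and 3.62% lower, with a median log2 ratio of 0.73 against 0.04 for all genes. The median of the list in conventional CD4 cells was 0.23. Fas stood at 2.23-fold, and Rps27l, a ribosomal protein relative, had 214 CPM in 106 CKO cells and 109 CPM in 63 control cells, 1.96-fold. Ei24, Bbc3 (the death inducer PUMA) and Mdm2, the ligase that degrades p53, stood at log2 ratios of 0.84, 0.83 and 0.69. Bax, which permeabilises mitochondria, had 226 CPM in the CKO and 154 CPM in the control library, with a log2 ratio of 0.55 in resting Treg and 0.69 in conventional CD4 cells. The log2 ratio of Fas was 0.59 when 2 Foxp3 UMIs were asked for. Trp53inp1 was the 1 called lower, at 66.9 CPM in CKO cells against 101 CPM in control cells. The median of the list moved to 0.18 when Klrg1, S100a4 and Maf were not used to exclude cells, and Ei24 had a log2 ratio of −0.12 in members with a Y-linked UMI. Phlda3, too rare to be read by the level rule, had 18 UMIs in 14 CKO cells and 3 UMIs in 3 control cells. With every list member that had a UMI included, the median of the list was 0.62.

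The BCL2 family, which sets the threshold for mitochondrial cell death, held 6 measured members of 15. Bbc3 and Bcl2l11 (BIM) were called higher, and Bcl2a1b was called lower, although its near-identical copies can exchange reads. The shares over all genes were 4.61% called higher and 3.62% lower. Mcl1, a survival factor of Treg cells, had 454 CPM in the CKO and 565 CPM in the control library. Bcl2, named here after its values had been seen, had different ratios in the 2 cell types (chromosome 1, 106538178 to 106714274). In resting Treg cells it had 404 CKO and 393 control UMIs, 381 CPM (344 to 420) in CKO cells against 446 CPM (403 to 492) in control cells, a log2 ratio of −0.23. In conventional CD4 cells it had 386 CPM in the CKO and 231 CPM in the control library, a log2 ratio of 0.74 (0.67 to 0.82). The difference between these ratios was −0.97 (−1.19 to −0.75). The log2 ratio of resting Treg over conventional CD4 cells for Bcl2 was −0.02 in the CKO library and 0.95 in the control library. The share of members with a Bcl2 UMI ran against the CPM, at 78.9% in the CKO library and 70.9% in the control. Thinning cells to 2000 UMIs turned the ratio within resting Treg cells to 0.21, while the difference from conventional CD4 cells remained below 0 in all 12 alternatives, between −1.56 and −0.50.

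Nuclear genes of oxidative phosphorylation were higher in the CKO library by small and similar amounts. Of 101 listed, 84 were measured and 78 of these had ratios above 0, against 54.7% of all genes above 0. The median log2 ratio was 0.30, against 0.19 in conventional CD4 cells. Of the 84 intervals, 41 lay above 0 and 0 below, against 10.9% of all genes with an interval above 0. Only 4 of the 84 were called higher, a share near the 4.61% of all genes. Among them were Uqcr10, of complex III, with 285 CPM in CKO cells and 177 CPM in control cells, Sdhd, of complex II, with 62.2 CPM in CKO cells and 39.7 CPM in control cells, and Cox5b, of complex IV, with 415 CPM in CKO cells and 276 CPM in control cells. The mitochondrial share of UMIs differed the other way, as given above, but not in resting Treg cells alone. Its median was 4.27% in CKO and 5.02% in control conventional CD4 cells, and 6.59% in CKO and 7.02% in control B cells. Ribosomal protein genes had a median of 0.03 over 81 of 84 members, and 1 of them, Rps27l, was called higher, against 4.61% of all genes.

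Genes of the PRMT5 pathway were compared next. Of 17 Sm and SMN complex genes, whose proteins are PRMT5 substrates or their assembly partners, 10 were measured and 0 were called in either direction. Their median was 0.15, against 0.17 in conventional CD4 cells, and 7 of the 10 ratios were above 0, against 54.7% of all genes. The interval lay above 0 for 4 and below 0 for 0 of the 10, against 10.9% and 7.86% of all genes. Snrpd3 had 164 CPM in the CKO and 117 CPM in the control library, a log2 ratio of 0.49 (0.13 to 0.85). Of 15 arginine methyltransferases and cofactors 5 were measured, and 0 were called. Among all genes 4.61% were called higher and 3.62% lower, so 0 calls in lists of this size is near the background share. Prmt5 itself was under the level at which a ratio counts as measured. Clns1a, the pICln subunit that brings Sm proteins to PRMT5, had 70.7 CPM in CKO cells against 47.6 CPM in control cells, a log2 ratio of 0.57 (0.01 to 1.15). Prmt1, which places asymmetric marks, had 80.1 CPM in the CKO and 87.3 CPM in the control library. In the S phase list, from which the rule removed cells with Mki67, 11 of 25 were measured and Mcm4 was the 1 called, at 43.3 CPM in the CKO against 21.5 CPM in the control library. Glycolysis genes had a median of 0.01 over 13 of 17 members, with Pfkl the 1 called. Of 19 cholesterol synthesis genes, 2 were measured and neither was called.

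Class I antigen presentation genes were mostly lower. Of 16 listed, 14 were measured, with 11 ratios below 0, 8 intervals below 0 (7.86% of all genes had one) and a median log2 ratio of −0.29, against −0.19 in conventional CD4 cells. H2-Q6 had 80.1 CPM in 49 CKO cells and 204 CPM in 79 control cells, 2.55-fold lower, and H2-Q7 had 453 CPM in 131 CKO cells and 784 CPM in 145 control cells, 1.73-fold lower. Without Klrg1, S100a4 and Maf in the rule, the log2 ratio of H2-Q7 was −0.29 and the median of the list −0.11. These Qa genes are close copies of each other, so their reads may be exchanged. H2-K1 had 2523 CPM in the CKO and 3294 CPM in the control library, and H2-D1 1923 CPM in CKO cells and 2385 CPM in control cells, neither past 1.5-fold. Interferon-stimulated genes did not follow one direction. Of 26 listed, 20 were measured, with a median of 0.02 and 3 called higher, against 4.61% of all genes. Gbp4, a guanylate-binding protein, had 95.2 CPM in the CKO and 46.5 CPM in the control library, Usp18, which removes ISG15 from proteins, 70.7 CPM in CKO cells and 40.8 CPM in control cells, and Isg15, a ubiquitin-like protein, stood at a log2 ratio of 0.68.

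Among genes listed for recent thymic emigrants, 6 of 11 were measured. Sox4, a transcription factor of newly made T cells, was called higher, with 56.5 CPM in 39 CKO cells and 32.9 CPM in 17 control cells, and Nrp1 was called lower. Over all genes 4.61% were called higher and 3.62% lower. Itm2a, an activation-associated membrane protein, had 151 CPM in the CKO and 110 CPM in the control library, but turned direction when cells were thinned, to −0.07.

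**Figure D3:**
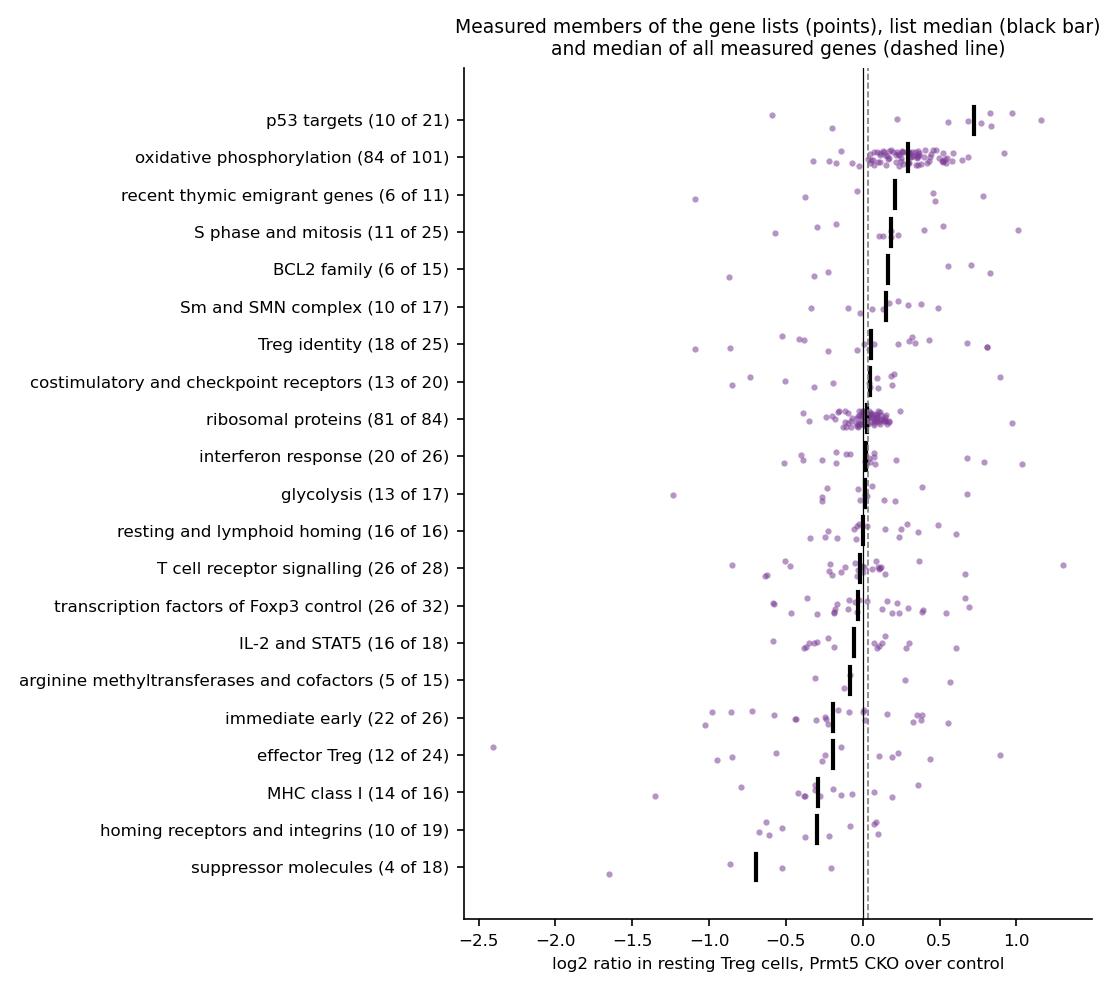
Log2 ratio, Prmt5 CKO over control, in resting Treg cells (horizontal axis) of each measured member (points) of the gene lists with 4 or more measured members, with measured and listed numbers in brackets; black bars are list medians and the dashed line is the median of all measured genes, 0.04. The p53 targets lay highest with a median of 0.73, the suppressor molecules, with only 4 measured members, lowest with −0.69, and the oxidative phosphorylation genes clustered above 0.

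Whether the difference between the libraries was the same in resting Treg and conventional CD4 cells was examined gene by gene. Of 3658 genes measured in both, 69 (1.89%) had a ratio at least 1.5-fold higher in resting Treg cells with the interval off 1, and 88 (2.41%) at least 1.5-fold lower. Both ratios come from the same libraries, and the conventional cells are no independent control. A Y-linked UMI was present in 32.7% of CKO and 23.7% of control conventional CD4 cells, and the part of this in the differences was not tested. Among the genes named above, the ratio was further above 0 in resting Treg cells for Fas (difference 0.91, 0.39 to 1.45), Igf2r (1.07, 0.54 to 1.61) and Ecm1 (0.73, 0.32 to 1.14). It was further below 0 for Itgb1 (−1.27, −2.17 to −0.43), Pfkl (−1.31, −2.15 to −0.50), Rgs1 (−0.67, −0.96 to −0.39) and Zap70 (−0.62, −1.10 to −0.15). For Lck the difference was −0.01 (−0.19 to 0.17). Plac8, Ifitm3, Nt5e, Nrp1 and Lrrc32 were too low in conventional CD4 cells for the comparison.

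**Figure D4:**
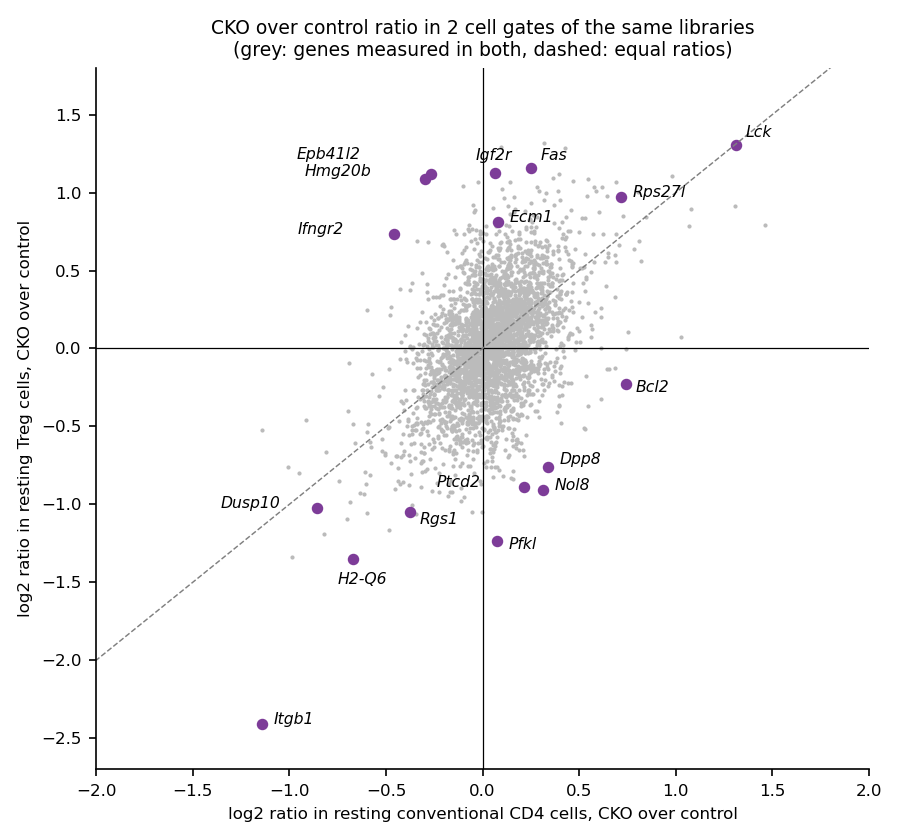
Log2 ratio, Prmt5 CKO over control, in resting Treg cells (vertical axis) against the ratio in resting conventional CD4 cells (horizontal axis) for the genes measured in both (grey), with named genes in purple; the dashed line marks equal ratios. Lck lies on the line, Fas, Igf2r and Ecm1 above it, and Bcl2, Pfkl and Itgb1 below it.

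Markers of other cell types differed in how far they were detected in resting Treg cells. Of 6 NK markers 1 was above 0 in each library, with 1 UMI in each, and 6 myeloid markers summed to 6 CKO and 3 control UMIs. The B markers Cd79a (a rule gene) and Ms4a1 were at 0 in both, while Ighm gave 214 CKO and 207 control UMIs. Of 5 dendritic markers 4 were at 0 in both libraries, and the fifth, Cst3, a cathepsin inhibitor, had 112 UMIs in 67 CKO cells and 78 UMIs in 59 control cells. The plasma cell list summed to 33 CKO and 44 control UMIs, of which Xbp1, a stress-response factor, gave 30 CKO and 43 control UMIs. The neutrophil list summed to 4 CKO and 0 control UMIs, and the erythroid list to 8 CKO and 0 control UMIs. The gamma-delta receptor gene Trdc had 15 UMIs in 7 CKO cells and 3 UMIs in 3 control cells, and the invariant T cell factor Zbtb16 had 0 in both. Pecam1, listed for stromal cells but also made by T cells, had 154 UMIs in 90 CKO cells and 74 UMIs in 55 control cells, with Cdh5 at 0 in both. The part of the 7 CKO cells with Trdc, and of Cst3, Xbp1, Ighm and Pecam1, in the differences above was not tested.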

How the data were processed

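CD3+ spleen T cells of Prmt5 CKO and control mice were measured in 1 library each. The deposited matrices hold raw UMI counts per gene and barcode. Per the submitters' processing notes the authors used CASAVA 1.8, Cell Ranger 3.1.0, Seurat 2.3.4 and mm10, without saying which step each served. Gene positions came from GENCODE annotation of mm10, matched for 30766 of 30905 identifiers, and identifiers sharing a symbol (127) were summed.

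Counts were summed per gate and library and given as CPM, computed here. Exact Poisson intervals (levels), conditional binomial intervals (ratios), a conditional odds ratio interval (difference of ratios) and Clopper-Pearson intervals (shares) were used at 95%, with numpy 2.4.6, scipy 1.17.1 and pandas 2.3.3. UMIs of 1 cell are not independent, so the true error is larger. With 1 library per group no test was run. The scripts were tested on simulated data.

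The B gate asked for at least 1 Cd79a UMI and 0 Cd3e, and the CD8 gate for Cd3e and Cd8a or Cd8b1 with 0 Cd4 and 0 Cd79a. Scrublet (scanpy 1.11.5, expected rate 6%) called 1 CKO and 4 control doublets, too few to have worked, so doublets remain, and leaving out the highest scores was an alternative.

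Named genes were the 15 highest and 15 lowest ratios with the interval off 1, the markers, Prmt5, up to 4 members of each of 22 lists with the largest ratios, 10 genes on each side against conventional CD4 cells and 6 of opposite direction. Further list members, and Bcl2, are examples chosen after their values were seen. Receptor segments, mitochondrial, ribosomal, sex-linked and predicted genes were left out of the ranking. The members and lists were chosen with earlier results of these data known. Alternatives changed the cell filter, the rule, the scaling, the weighting and the thresholds. A few genes are not reported here.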

Additional observations from a re-analysis of the deposited data

Results flagged for a closer look

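Of 3658 genes measured in both, 28 had opposite directions in resting Treg cells and in resting conventional CD4 cells, each with both counting intervals off 0, and the 6 with the widest differences are given here with Bcl2. With 1 library per group, the difference between the cell types was not tested beyond its counting interval. The values below are the log2 ratio (CKO over control) in resting Treg cells minus that in conventional CD4 cells. The difference was 1.39 for Hmg20b, a chromatin-associated HMG protein, with 1.09 in resting Treg and −0.30 in conventional CD4 cells. Without Klrg1, S100a4 and Maf in the rule, the ratio of Hmg20b in Treg cells was 0.01. It was 1.38 for Epb41l2, with 1.12 in resting Treg and −0.27 in conventional CD4 cells, and 1.19 for Ifngr2, a chain of the interferon gamma receptor, with 0.73 in resting Treg and −0.46 in conventional CD4 cells. These 3 genes were higher in CKO resting Treg cells and lower in CKO conventional CD4 cells.

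For Nol8, a nucleolar protein, the difference was −1.22, with −0.91 in resting Treg and 0.32 in conventional CD4 cells. For Ptcd2, a mitochondrial RNA-binding protein, it was −1.10, with −0.89 in resting Treg and 0.21 in conventional CD4 cells, and the resting Treg ratio turned to 1.10 when cells were thinned to 2000 UMIs. For Dpp8, a dipeptidyl peptidase, it was −1.10, with −0.76 in resting Treg and 0.34 in conventional CD4 cells. These genes rest on few molecules in resting Treg cells, between 25 and 68 UMIs in the CKO library and between 18 and 45 in the control library. For Bcl2, with 404 CKO and 393 control UMIs, the difference was −0.97.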

How the results depend on the processing

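Of 97 values answering a comparison under 16 alternatives, 77 stayed within their limits and 20 moved. A reversal was scored for Prmt5 only, and 0 were seen. The identity median, 0.05 under the rule, fell below 0 in some alternatives. The share ratio among kept cells, 0.992 under the rule, rose above 1 in some. For 119 named genes under 12 alternatives, 1295 of 1427 values stayed, 121 moved and 11 reversed. For list medians, 205 of 269 values stayed and 64 moved, and a change of sign was not scored as a reversal. The BCL2 family median, 0.16 under the rule, was −0.25 with at least 2 Foxp3 UMIs and −0.20 among cells with a Y-linked UMI. Asking for 2 Foxp3 UMIs left 91 CKO and 64 control cells and gave a share ratio of 1.25, 102 genes higher and an identity median of −0.23. Thinning cells to 2000 UMIs before the rule left 90 CKO and 86 control cells and 716 genes, of which 26 were higher and 17 lower. The difference from conventional CD4 cells then held 19 genes higher and 10 lower. Thinning also turned Cuedc2 to −0.65, Cdk5rap1 to −0.066, Rasgrp1 to −0.20, Snrpe to −0.0090, Itgal to 0.0084, Itm2a to −0.066, Pkm to −0.19, Ptcd2 to 1.10 and Bcl2 to 0.21. Prmt5 gave no value there. Among cells with a Y-linked UMI (49 CKO and 41 control), 60 genes were higher and 55 lower, the difference from conventional CD4 cells held 38 higher and 30 lower, the identity median was −0.11, Id3 turned to −0.13 and Ei24 to −0.12. The mean of per-cell CPM gave an identity median of 0.23. Without a filter on low values 323 genes were higher and 296 lower, at a minimum of 50 CPM 109 and 84, and at 2-fold 31 and 19. Leaving out cells with a UMI of S100a6, Rora, Itgae, Cxcr3, Prdm1 or Penk, an alternative chosen after seeing the data, gave 88 genes lower. Median-of-ratios scaling gave 143 genes higher and 167 lower. Fewer cells and genes enter the thinned and Y-linked sets; the cause of the other moves was not tested. No paired analysis was possible because each group is 1 library. Depth limits any gene under about 60 UMIs, and doublets, free RNA and sex were not resolved per cell.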
